A study of Homo sapiens with 12 samples.

Results

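Autophagy delivers cell material to the lysosome for breakdown, and 36 genes of that machinery were followed here in MDA-MB231, an established human line of triple-negative breast cancer. The 36 were chosen by name, with earlier results of these data known. They are components of initiation, membrane growth, conjugation and cargo selection, and LAMP2, the lysosomal receptor of chaperone-mediated autophagy. A gene was represented by its brightest probe set, the one with the highest mean over all 12 arrays, among probe sets annotated to that gene alone. On this rule 33 of the 36 were measured, of 11963 genes in all. ULK3, ZFYVE1 and VMP1 have no such probe set and were not analysed as genes.

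Cells grown in full medium with serum were exposed for 24 h to manassantin, rotenone or digoxin, or to the vehicle DMSO, with 3 arrays in each of the 4 groups. Manassantin, a plant lignan, is called manassantin A in the design text. Rotenone inhibits respiratory complex I, and digoxin, a cardiac glycoside, inhibits the pump that exchanges sodium for potassium. The sample titles give digoxin where the design text gives digitoxin, so which of these related glycosides was used cannot be told, and the titles' name is kept. The sources used here give neither doses nor oxygen level. No label ties the arrays to separate cultures, so the p-values measure the spread between arrays, which may be technical.

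The mesenchymal markers VIM, AXL, CD44 and MSN lay at mean log2 levels of 13.19, 12.49, 11.67 and 11.44, while PGR, CDH1 and FOXA1 lay at 2.40, 3.59 and 3.25. Against the pattern listed for this line, SPARC was low at 3.85, and KRT19, GATA3, ERBB2 and EPCAM, listed as low, lay between 7.87 and 10.29. The estrogen receptor gene ESR1, also listed as low, lay at 6.19, above the level of 5.747 under which a gene is called dim here. The leukocyte marker PTPRC and the endothelial marker CDH5 lay at 2.97 and 3.03.

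In macroautophagy the ULK kinase complex starts a membrane sheet, a class III phosphatidylinositol 3-kinase complex marks it, and a ubiquitin-like conjugation system couples proteins of the LC3 and GABARAP family to its lipid. Cargo receptors bind those proteins and the ubiquitinated material to be enclosed, and the closed autophagosome fuses with a lysosome. In chaperone-mediated autophagy no vesicle forms: a cytosolic chaperone complex brings single proteins to LAMP2, whose A isoform passes them through the lysosomal membrane. The study's title places manassantin A in this route, so LAMP2 is described first.

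LAMP2 lies on chromosome X from 120426148 to 120469349 (GRCh38.p14), and its transcripts encode isoforms that differ in the membrane anchor and tail. With its brightest probe set, LAMP2 read 10.31, 10.13 and 10.18 on the manassantin arrays, 10.25, 10.10 and 10.17 with rotenone, 10.15, 10.10 and 9.96 with digoxin and 10.23, 10.08 and 10.05 with DMSO (log2 expression). All 4 groups overlapped. The log2 difference of manassantin from DMSO was 0.08 ± 0.073 (SE, n = 3 arrays per group), with a 95% confidence interval from -0.08 to 0.24 and adjusted p = 0.645 by limma. As a fold that interval runs from 0.947 to 1.18. With rotenone the difference was 0.05 (interval -0.11 to 0.21, adjusted p = 0.756) and with digoxin -0.05 (interval -0.21 to 0.11, adjusted p = 0.573). LAMP2 changes inside these intervals are compatible with the values of 3 arrays per group.

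The other LAMP2 probe sets were tested in a fit over all 22215 probe sets that are not controls. For probe set 200821_at the annotation cites the RefSeq transcript of isoform B, and for 203041_s_at, the brightest, and 203042_at that of isoform A. Which exons the probes cover is not stated there, so the probe sets are not isoform measurements. Probe set 203042_at averaged 8.94 ± 0.13 with manassantin and 8.84 ± 0.048 with DMSO (SD, n = 3 each), a difference of 0.10 ± 0.079 (SE, limma adjusted p = 0.602). Probe set 200821_at read 9.27, 9.25 and 9.28 with manassantin, against 9.34, 9.33 and 9.44 with DMSO. Those arrays did not overlap and manassantin was the lower, but the difference of -0.10 ± 0.058 did not pass (adjusted p = 0.486). The rotenone arrays of 200821_at, at 9.32, 9.22 and 9.30, also lay below all DMSO arrays, with a difference of -0.08 ± 0.058 that did not pass (adjusted p = 0.495). Manassantin and rotenone differed by -0.01 (adjusted p = 0.93). No LAMP2 probe set passed in any of the 4 comparisons.

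**Figure D1:**
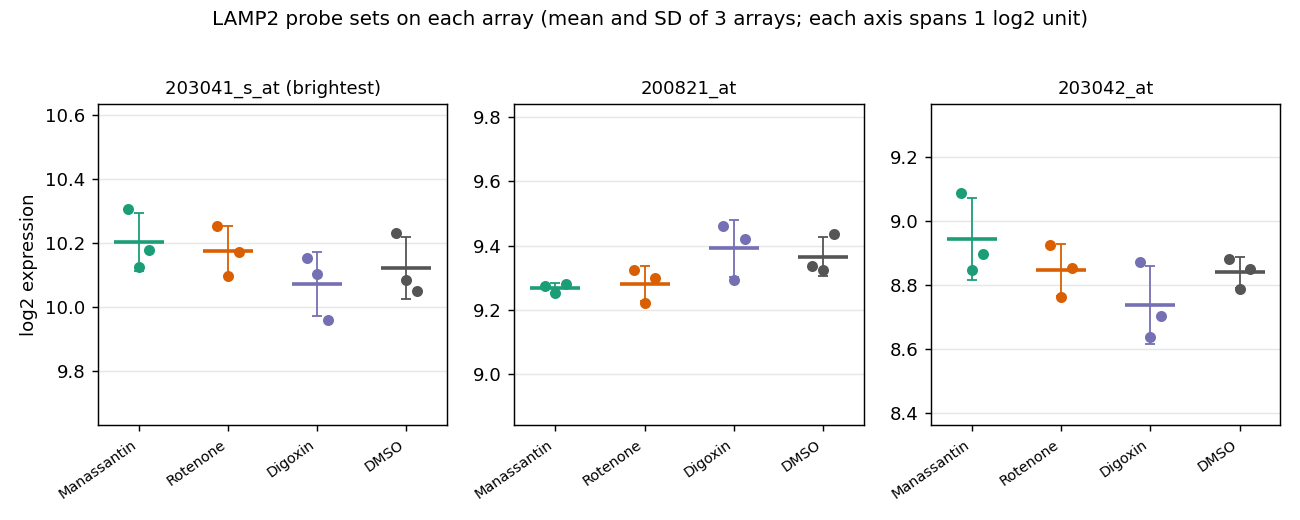
Log2 expression of the 3 LAMP2 probe sets (vertical axes) on the manassantin, rotenone, digoxin and DMSO arrays, where points are single arrays and bars with whiskers the mean and SD of 3 arrays. The groups overlap for the brightest probe set, and for 200821_at the manassantin arrays at 9.27, 9.25 and 9.28 and the rotenone arrays at 9.32, 9.22 and 9.30 lie below the DMSO arrays.

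Manassantin against DMSO asked whether the compound moved the transcripts of this machinery. Of 33 genes 1 rose and 0 fell by limma, where 0.97% of all 11963 genes were called, 0.853% higher and 0.117% lower. The gene that rose was ATG2A, whose protein carries lipid into the growing membrane. ATG2A read 8.51, 8.54 and 8.47 with manassantin, against 8.27, 8.33 and 8.25 with DMSO, and these arrays did not overlap. The difference was 0.23 ± 0.043 on the log2 scale (SE, adjusted p = 0.0376). In the fit over all probe sets the same ATG2A probe set was not called (limma adjusted p = 0.054). The call was lost with each of the 6 arrays left out in turn (adjusted p 0.0683 to 0.167), with a difference of 0.21 to 0.25.

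At an unadjusted p under 0.05 there were 9 of the 33 genes, 8 higher and ULK2 lower, or 27.3% where all genes had 15.8%. Over all 11963 genes 1236 were higher and 660 lower on that measure. The manassantin and DMSO arrays did not overlap for 11 of the 33, all higher with manassantin, or 33.3% where all genes had 22.4%. Most such genes in the whole set were higher too, 1667 against 1011 lower. The median difference was 0.0395, against 0.00689 over all genes. PIK3R4, the regulatory subunit of the class III kinase, stood nearest to the threshold after ATG2A, at 0.20 (adjusted p = 0.0746), with -0.14 and 0.11 for its dim other probe sets. In the LC3 and GABARAP family GABARAP stood at 0.14, MAP1LC3B at 0.12 and GABARAPL2 at 0.12, with adjusted p of 0.15, 0.228 and 0.313. The other MAP1LC3B probe set, 208786_s_at, went the opposite way: it read 9.06, 8.98 and 9.03 with manassantin, against 9.19, 9.14 and 9.10 with DMSO, also without overlap. That difference of -0.12 ± 0.05 did not pass either (adjusted p = 0.326), so the direction of MAP1LC3B, one of the 11 genes, depends on the probe set. The 18S rRNA control averaged 9.83 ± 0.48 with manassantin and 10.40 ± 0.32 with DMSO (SD, n = 3 each, exact permutation p = 0.3, two-sided, and the least possible p is 0.1). With that control as a covariate ATG2A stood at 0.18 with adjusted p = 0.396. The 3' minus 5' difference of the dap spike-in averaged 3.07 ± 0.49 with manassantin and 2.49 ± 0.39 with DMSO (SD, n = 3 each, exact permutation p = 0.2), and its part in these values was not tested.

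Rotenone against DMSO called 4 of the 33 genes, 3 higher and 1 lower, where 6.94% of all genes were called, 3.55% higher and 3.39% lower. SQSTM1, the cargo receptor p62 and itself a cargo of autophagy, rose most. It read 10.10, 10.13 and 10.03 with rotenone, against 9.63, 9.60 and 9.49 with DMSO. The difference of 0.51 ± 0.058 is 1.43-fold (adjusted p = 0.00043), passed with each array left out, and was 0.40 for the gene's other probe set (adjusted p = 0.0149). MAP1LC3B, which encodes LC3B, the usual marker of autophagosomes, read 9.88, 9.99 and 9.93 with rotenone, against 9.70, 9.68 and 9.71 with DMSO. Every rotenone array was above every DMSO array, and the difference was 0.24 ± 0.046 (adjusted p = 0.0115). It missed the threshold without rotenone replicate 2 (adjusted p = 0.0572) and without DMSO replicate 2 (adjusted p = 0.0542), and its other probe set stood at 0.17 (adjusted p = 0.0865).

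ATG2A read 8.45, 8.44 and 8.47 with rotenone, above all the DMSO values given before. The difference of 0.17 ± 0.043 (adjusted p = 0.0333) lost its call with each of the 6 arrays left out (adjusted p 0.0589 to 0.126). It was not called in the fit over all probe sets either (limma adjusted p = 0.054). ULK2, one of the kinases that start autophagy, fell: it read 5.76, 5.59 and 5.65 with rotenone, against 6.05, 6.11 and 6.12 with DMSO. The difference was -0.43 ± 0.093 (adjusted p = 0.0187). It missed the threshold without rotenone replicate 2 or 3 (adjusted p = 0.0845 and 0.0599) and without DMSO replicate 2 or 3 (adjusted p = 0.0679 and 0.0683). The other ULK2 probe sets stood at -0.29 and -0.01 with rotenone (adjusted p = 0.107 and 0.964). ULK2 is dim here: its mean over all arrays, 5.74, is below the 40th percentile over genes. GABARAP stood lower with rotenone at -0.15 (adjusted p = 0.0555) and UVRAG higher at 0.21 (adjusted p = 0.0524), each without overlap of the arrays. The 18S control averaged 10.01 ± 0.15 with rotenone and 10.40 ± 0.32 with DMSO (SD, n = 3 each, exact permutation p = 0.2), and with it as a covariate 2 of the 33 genes rose and 0 fell, ULK2 standing at -0.36 (adjusted p = 0.0999).

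Digoxin against DMSO gave the most calls. Of the 33 genes 22 rose and 6 fell, where 54.8% of all genes were called, 28% higher and 26.9% lower. The 22 are 66.7% of the measured genes and the 6 are 18.2%. Arrays did not overlap for 27 of the 33, or 81.8%, where all genes had 61.9%. The median difference of the set was 0.273, against 0.0651 over all genes. Of the 33 genes 31 are not dim, and among those 71% rose and 16.1% fell, where 69.3% of the 7178 genes that are not dim were called, 31% higher and 38.3% lower. These shares describe a list chosen by name, with earlier results of these data known, and are no test of it. Arrays of whole cultures cannot separate fewer cells that express a gene from less RNA per cell.

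**Figure D2:**
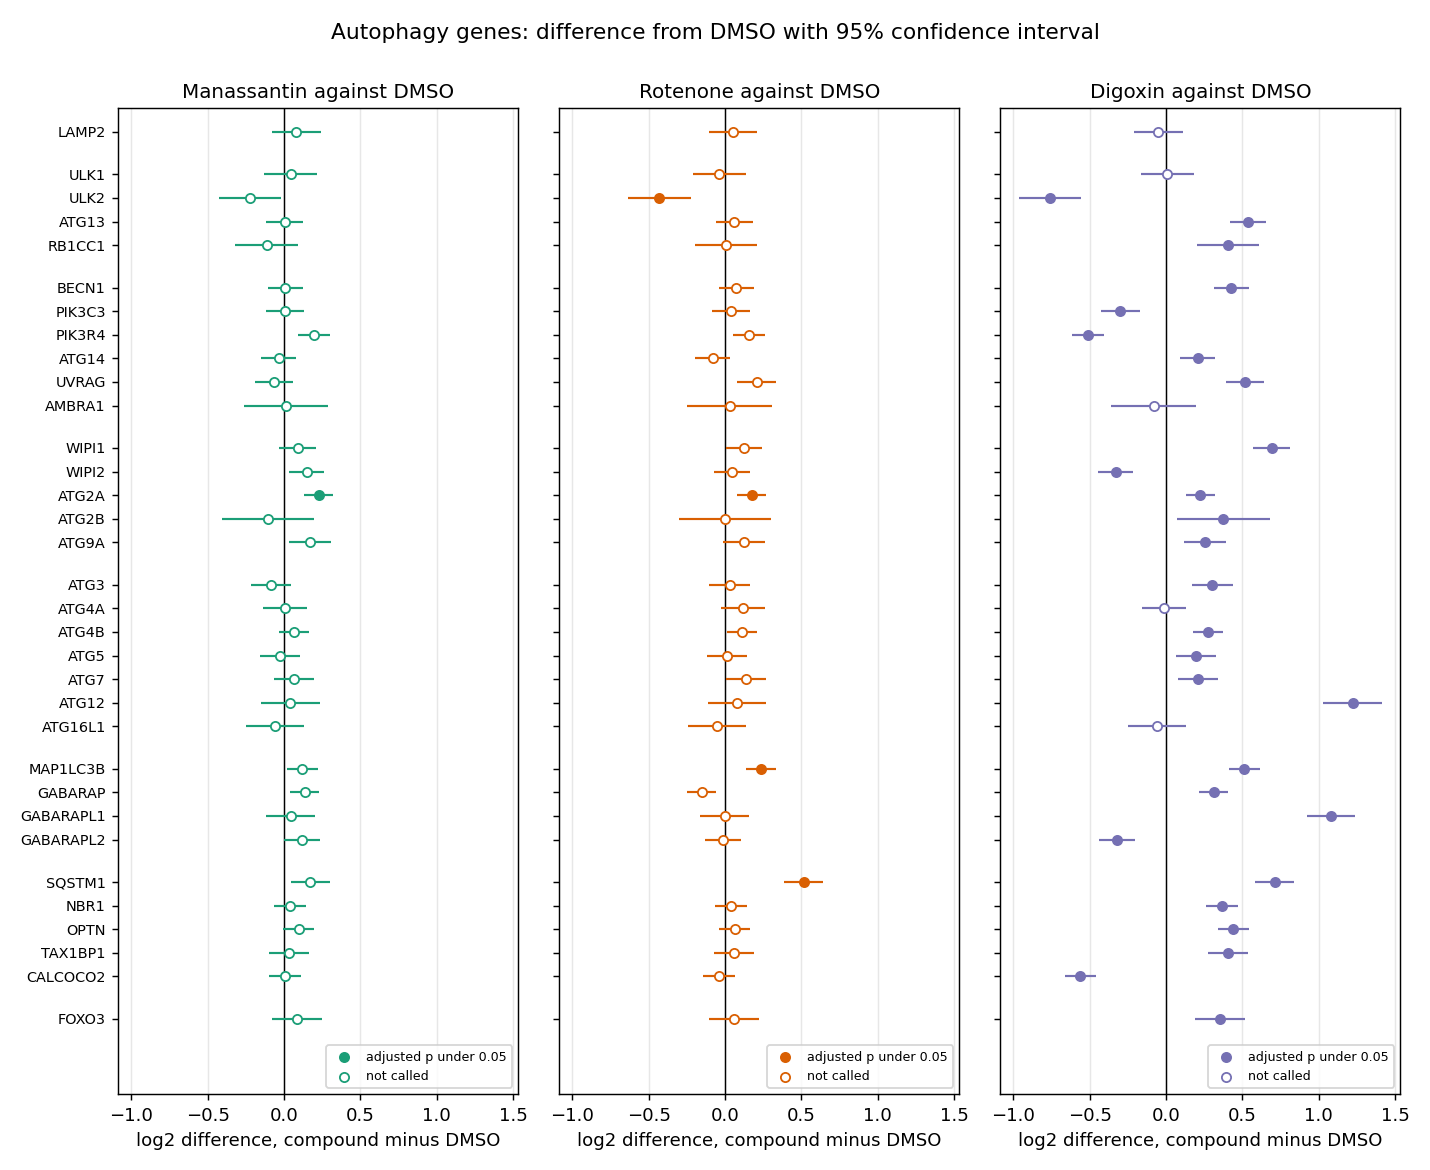
Log2 difference from DMSO (horizontal axes) of the 33 measured autophagy genes, grouped by role, for manassantin, rotenone and digoxin, where points are limma estimates on 3 arrays per group with 95% confidence intervals and filled points were called. Digoxin spans -0.76 for ULK2 to 1.22 for ATG12, and manassantin -0.22 for ULK2 to 0.23 for ATG2A.

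In the initiation complex 2 of 4 genes rose and 1 fell with digoxin. ATG13, the adaptor of the kinase, read 7.62, 7.68 and 7.64 with digoxin, against 7.10, 7.18 and 7.05 with DMSO, a rise of 0.54 ± 0.055 without overlap (adjusted p = 4.56e-06). Its brightest probe set has a suffix that marks possible cross-hybridization. Its other probe sets stood at 0.45 for 203363_s_at (adjusted p = 0.000146) and 0.07 for 203364_s_at (adjusted p = 0.258). RB1CC1, the scaffold also called FIP200, rose by 0.40 (adjusted p = 0.00295), and its other probe set did not pass at 0.13. ULK2 read 5.27, 5.21 and 5.52 with digoxin, against 6.05, 6.11 and 6.12 with DMSO, and no digoxin array reached the lowest DMSO array. Its difference of -0.76 ± 0.093 (adjusted p = 2.09e-05) was the largest fall among the 33 genes, and its other probe sets stood at -0.69 and -0.07. ULK1, the better known kinase of the pair, differed by 0.01 (interval -0.16 to 0.18, adjusted p = 0.928).

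By brightest probe set the class III kinase complex split with digoxin, with 3 of 6 genes higher and 2 lower. The catalytic subunit PIK3C3 was lower by its brightest probe set, at -0.30 ± 0.058 (adjusted p = 0.000799). Its dim other probe set went the opposite way, averaging 4.80 with digoxin and 4.09 with DMSO, so the direction of PIK3C3 depends on the probe set. The regulatory partner PIK3R4 read 6.80, 6.78 and 6.78 with digoxin, against 7.21, 7.31 and 7.36 with DMSO. That difference was -0.51 ± 0.048 without overlap (adjusted p = 2.25e-06), while 2 dim probe sets of PIK3R4 were not called. BECN1, the scaffold Beclin 1, rose by 0.43 ± 0.052 (adjusted p = 2.14e-05), and ATG14, which directs the complex to forming autophagosomes, by 0.21 (adjusted p = 0.00564). UVRAG, the subunit of the endosomal form, read 7.75, 7.86 and 7.76 with digoxin, against 7.24, 7.28 and 7.29 with DMSO. These arrays did not overlap, and the rise was 0.52 ± 0.057 (adjusted p = 8.13e-06). AMBRA1, a Beclin 1 partner, was not called at -0.08 (interval -0.36 to 0.20).

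Of 5 genes of membrane supply 4 rose and 1 fell with digoxin. WIPI1, a protein that binds the lipid made by the class III kinase, read 7.84, 8.01 and 7.92 with digoxin, against 7.23, 7.20 and 7.27 with DMSO, a rise of 0.69 ± 0.055 (adjusted p = 4.99e-07). Its relative WIPI2 fell, at -0.33 ± 0.053 (adjusted p = 0.0002) and at -0.49 for probe set 202031_s_at, while a dim probe set stood at -0.01. ATG2A, with 8.48, 8.53 and 8.51 on the digoxin arrays, rose by 0.22 (adjusted p = 0.000831), and ATG9A, a lipid scramblase, rose by 0.25 (adjusted p = 0.00463). ATG2B, the partner of ATG2A, rose by 0.38 (adjusted p = 0.0367) but depended on single arrays. Without DMSO replicate 1 ATG2B stood at 0.21 with adjusted p = 0.155, and without digoxin replicate 3 at 0.29 with adjusted p = 0.128. Without digoxin replicate 1 or DMSO replicate 2 the adjusted p was 0.0599 or 0.0545. ATG2A stood at 0.23 with manassantin, 0.17 with rotenone and 0.22 with digoxin, comparisons that share their DMSO arrays.

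Of 7 conjugation genes 5 rose and 0 fell with digoxin by limma. At an unadjusted p under 0.05 the counts were the same. ATG12, the ubiquitin-like protein joined to ATG5, had the largest rise of the 33 genes. It read 9.82, 9.97 and 9.92 with digoxin, against 8.60, 8.64 and 8.79 with DMSO, and every digoxin array was above every DMSO array. The rise of 1.22 ± 0.088 is 2.33-fold (adjusted p = 2.08e-07). Probe set 204833_at gave 1.08, while the dim probe set 213930_at gave 0.13 (adjusted p = 0.345). ATG3, the E2-like enzyme that passes LC3 to lipid, rose by 0.30 (adjusted p = 0.00108), and its dim other probe set did not pass at 0.08. The protease gene ATG4B rose by 0.27 (adjusted p = 0.000261) and stood at 0.31 for probe set 212280_x_at, both of which carry the cross-hybridization suffix. Probe set 204902_s_at, without that suffix, stood at 0.01 (adjusted p = 0.917). ATG7, the E1-like enzyme, rose by 0.21 (adjusted p = 0.0113) and ATG5, which ATG12 is joined to, by 0.20 (adjusted p = 0.0166). ATG7 missed the threshold without DMSO replicate 3 (adjusted p = 0.0546) and ATG5 without replicate 2 of digoxin or of DMSO (adjusted p = 0.0591 and 0.0579). With its probe sets averaged ATG5 was not called, at 0.08 (adjusted p = 0.234). The protease gene ATG4A and ATG16L1, which anchors the ATG12 conjugate, were not called, at -0.01 and -0.06, and ATG16L1 is dim with a mean of 2.96.

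All 4 measured genes of the LC3 and GABARAP family, the proteins coupled to the membrane, were called with digoxin, 3 higher and 1 lower. GABARAPL1 read 7.31, 7.26 and 7.32 with digoxin, against 6.28, 6.10 and 6.26 with DMSO, a rise of 1.08 ± 0.072 or 2.12-fold (adjusted p = 1.11e-07). Its other probe set stood at 1.52. MAP1LC3B read 10.25, 10.18 and 10.20 with digoxin, against 9.70, 9.68 and 9.71 with DMSO, a rise of 0.51 ± 0.046 (adjusted p = 1.46e-06), with 0.79 for its other probe set. For both genes the digoxin arrays lay above all DMSO arrays. GABARAP, the founding member of its branch, averaged 11.82 ± 0.021 with digoxin and 11.51 ± 0.037 with DMSO (SD, n = 3 each), a rise of 0.31 ± 0.043 (adjusted p = 5.78e-05). GABARAPL2, also called GATE-16, fell: it averaged 9.56 ± 0.074 with digoxin and 9.88 ± 0.072 with DMSO (difference -0.32 ± 0.054, adjusted p = 0.000292).

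Of the 5 cargo receptors 4 rose with digoxin and 1 fell. SQSTM1 read 10.27, 10.22 and 10.38 with digoxin, against 9.63, 9.60 and 9.49 with DMSO, a rise of 0.71 ± 0.058 or 1.64-fold without overlap (adjusted p = 6.34e-07), with 0.78 for its other probe set. NBR1, a receptor that like SQSTM1 binds both ubiquitin and LC3, rose by 0.37 (adjusted p = 3.44e-05), and TAX1BP1, another ubiquitin-binding receptor, by 0.41 (adjusted p = 0.000104). TAX1BP1 probe set 200976_s_at averaged 10.22 with digoxin and 9.88 with DMSO. Its probe set 213786_at averaged 8.09 ± 0.019 with digoxin and 8.06 ± 0.11 with DMSO (SD, n = 3 each), and those arrays overlapped. CALCOCO2, which encodes NDP52, a receptor for bacteria and mitochondria, read 9.05, 9.07 and 9.09 with digoxin, against 9.71, 9.60 and 9.59 with DMSO. No digoxin array reached the DMSO arrays, and the difference was -0.56 ± 0.047 (adjusted p = 8.29e-07). OPTN, the receptor optineurin, rose by 0.44 ± 0.047 with its brightest probe set (adjusted p = 6.29e-06). The other OPTN probe set went the opposite way: it averaged 8.02 ± 0.1 with digoxin and 8.66 ± 0.079 with DMSO (SD, n = 3 each), a difference of -0.64 ± 0.082 (adjusted p = 3.31e-05).

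FOXO3, a transcription factor that acts on several autophagy genes, rose by 0.35 ± 0.075 with digoxin (adjusted p = 0.00172). It was not called with manassantin or rotenone, at 0.09 (adjusted p = 0.626) and 0.06 (adjusted p = 0.734). The 18S control averaged 10.08 ± 0.16 with digoxin and 10.40 ± 0.32 with DMSO (SD, n = 3 each, exact permutation p = 0.2), and with it as a covariate 21 of the 33 genes rose and 6 fell with digoxin.

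**Figure D3:**
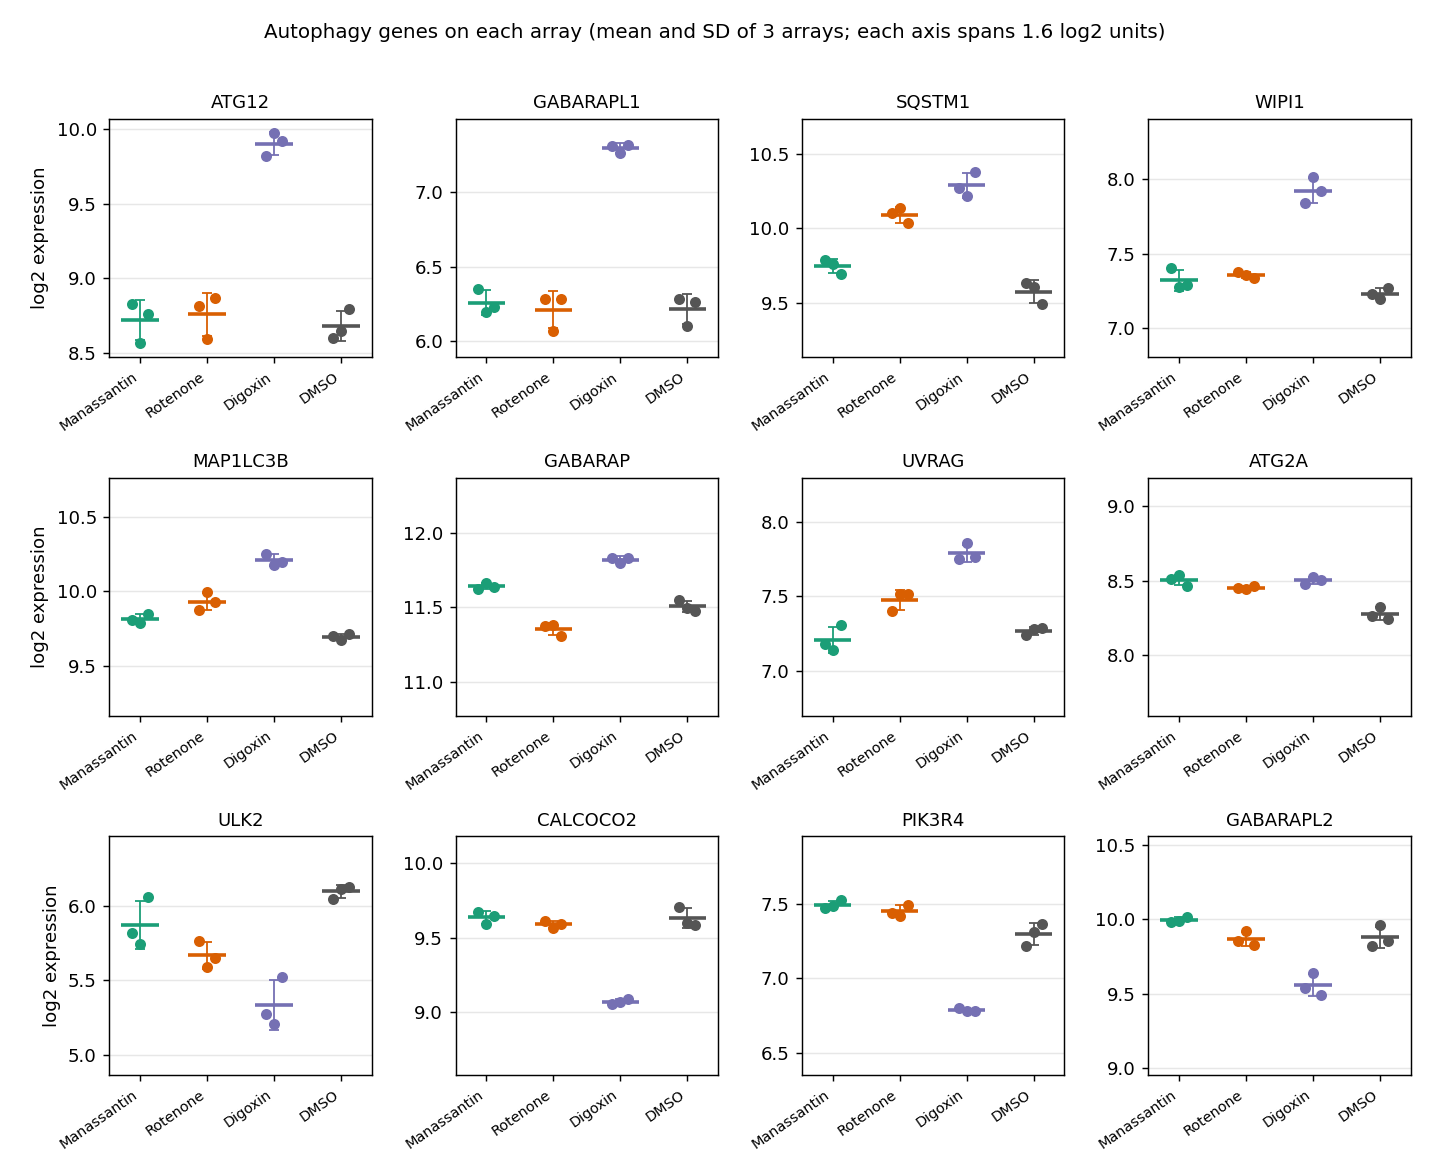
Log2 expression (vertical axes) of 12 autophagy genes on the manassantin, rotenone, digoxin and DMSO arrays, where points are single arrays and bars with whiskers the mean and SD of 3 arrays. ATG12 and GABARAPL1 arrays with digoxin lie apart above the DMSO arrays, CALCOCO2 and PIK3R4 apart below, and SQSTM1 is higher with both rotenone and digoxin than with DMSO.

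For 20 of the genes the array holds other probe sets, 30 in all, which are read here for digoxin. In the gene fit 54.8% of all genes were called with digoxin, 28% higher and 26.9% lower. The share over all probe sets is not given, so the counts that follow are no test of agreement. In the fit over all probe sets 13 of the 30 were called in the same direction as the brightest one and 3 in the opposite direction. The 3 belong to OPTN, PIK3C3 and ATG5. For PIK3C3 the dim probe set 215394_at averaged 4.80 ± 0.15 with digoxin and 4.09 ± 0.059 with DMSO (SD, n = 3 each), a difference of 0.71 ± 0.1 (limma adjusted p = 8.28e-05), against -0.30 for the bright one. For ATG5, 202512_s_at stood at -0.25 (adjusted p = 0.0415) and 210639_s_at at 0.30 (adjusted p = 0.00363). A further 10 were not called where the brightest one was. For AMBRA1 the dim probe set 222189_at was called, at 0.34 (adjusted p = 0.0167), where the brightest was not.

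**Figure D4:**
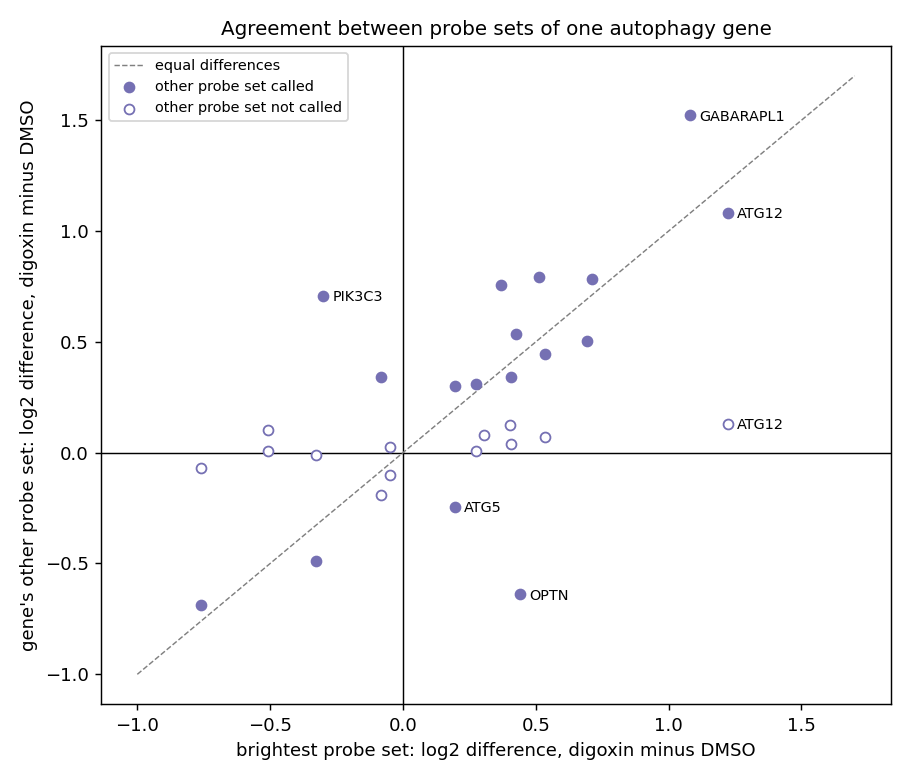
Log2 difference of digoxin from DMSO for each autophagy gene's brightest probe set (horizontal axis) against each of its other probe sets (vertical axis), 30 points for 20 genes. OPTN (0.44 and -0.64), PIK3C3 (-0.30 and 0.71) and ATG5 (0.20 and -0.25) lie in quadrants of opposite sign.

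Because many of these genes were called with digoxin, their promoters were read for short motifs of factors tied to autophagy genes. RefSeq windows on GRCh38.p14 from 250 bases before to 50 bases after a start were at hand for 33 of the 36 genes, without LAMP2, RB1CC1 and UVRAG. Both strands were searched for CACGTG, the E-box core bound by TFEB, TFE3 and MITF, for GTAAACA, a FOXO core, for TGANTCA, bound by AP-1, and for TGACNNNGC, an antioxidant response core bound by NFE2L2. Matches of TGANTCA and TGACNNNGC can share bases. The E-box was in 3 of the 45 windows of these genes, or 6.67%, and in 7.26% of all 35116 windows. The FOXO core was in 2.22% of their windows against 3.42% of all, the AP-1 motif in 4.44% against 7.71% and the antioxidant motif in 8.89% against 13.3%.

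The windows of the largest rises (ATG12, GABARAPL1), of the largest falls (ULK2, CALCOCO2) and of the measured genes with an E-box (ATG14, ATG3) are shown 5′ to 3′ on the strand of the gene, with motif matches in capitals. The start is base 251 of each.
ATG12 (chr5:115841516-115841815, - strand): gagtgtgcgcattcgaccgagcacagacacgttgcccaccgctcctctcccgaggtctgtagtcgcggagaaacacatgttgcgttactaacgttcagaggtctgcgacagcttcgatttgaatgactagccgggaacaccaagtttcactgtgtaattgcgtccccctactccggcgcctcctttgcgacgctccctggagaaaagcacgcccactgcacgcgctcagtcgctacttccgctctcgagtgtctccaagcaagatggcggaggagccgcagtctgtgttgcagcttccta
GABARAPL1 (chr12:10212627-10212926, + strand): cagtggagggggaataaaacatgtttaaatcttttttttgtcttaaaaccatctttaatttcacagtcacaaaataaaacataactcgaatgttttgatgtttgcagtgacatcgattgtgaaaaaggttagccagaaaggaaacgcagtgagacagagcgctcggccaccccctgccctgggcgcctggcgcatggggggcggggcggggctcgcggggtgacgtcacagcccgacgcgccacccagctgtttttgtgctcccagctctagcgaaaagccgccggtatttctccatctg
ULK2 (chr17:19867887-19868186, - strand): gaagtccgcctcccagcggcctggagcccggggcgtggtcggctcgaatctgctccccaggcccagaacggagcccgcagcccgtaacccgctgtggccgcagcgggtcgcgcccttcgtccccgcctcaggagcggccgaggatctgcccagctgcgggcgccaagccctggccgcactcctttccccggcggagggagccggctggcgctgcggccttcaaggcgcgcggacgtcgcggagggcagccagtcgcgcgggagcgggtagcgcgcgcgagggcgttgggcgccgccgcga
CALCOCO2 (chr17:48830785-48831084, + strand): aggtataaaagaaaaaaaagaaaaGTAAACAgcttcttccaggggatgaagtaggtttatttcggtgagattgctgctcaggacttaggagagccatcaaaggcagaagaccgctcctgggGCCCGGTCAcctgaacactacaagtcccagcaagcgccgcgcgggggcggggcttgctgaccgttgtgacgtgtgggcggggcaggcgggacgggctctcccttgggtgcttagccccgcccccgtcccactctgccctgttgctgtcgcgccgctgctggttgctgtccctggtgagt
ATG14 (chr14:55411781-55412080, - strand): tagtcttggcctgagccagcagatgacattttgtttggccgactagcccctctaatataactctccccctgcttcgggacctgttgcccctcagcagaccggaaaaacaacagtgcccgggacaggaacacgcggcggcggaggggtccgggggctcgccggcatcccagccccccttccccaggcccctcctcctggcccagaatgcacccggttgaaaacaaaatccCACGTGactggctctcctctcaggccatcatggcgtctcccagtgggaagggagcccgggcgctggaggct
ATG3 (chr3:112561913-112562212, - strand): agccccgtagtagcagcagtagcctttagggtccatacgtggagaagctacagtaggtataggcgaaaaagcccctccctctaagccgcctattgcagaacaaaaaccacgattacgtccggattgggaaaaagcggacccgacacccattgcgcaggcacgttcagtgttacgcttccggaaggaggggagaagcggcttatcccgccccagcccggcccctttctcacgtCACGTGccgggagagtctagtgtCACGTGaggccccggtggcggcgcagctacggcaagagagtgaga
ATG3 has 2 E-boxes, one before the start and one after it, and ATG14 has 1, before the start. ATG3 and ATG14 rose with digoxin by 0.30 and 0.21. The windows of ATG12 and GABARAPL1, which rose by 1.22 and 1.08, hold no match. CALCOCO2, which fell, holds GTAAACA and one match to the antioxidant motif. The windows shown were picked by digoxin difference or by E-box, and a link between motif and expression was not tested. GC content was 57.7% for ATG12, 51.7% for GABARAPL1, 77% for ULK2 and 59.7% for CALCOCO2.

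Manassantin against rotenone compared these compounds directly. Of 33 genes 1 was higher and 2 were lower with manassantin, or 9.09%, where 8.47% of all genes were called, 4.69% higher and 3.78% lower. Arrays did not overlap for 9 of the 33, or 27.3%, where all genes had 29.2%. GABARAP read 11.62, 11.66 and 11.64 with manassantin, against 11.37, 11.38 and 11.31 with rotenone, a difference of 0.29 ± 0.043 (adjusted p = 0.0022). The DMSO arrays, at 11.55, 11.49 and 11.48, lay between the compounds. SQSTM1 read 9.78, 9.76 and 9.69 with manassantin, against 10.10, 10.13 and 10.03 with rotenone, a difference of -0.34 ± 0.058 (adjusted p = 0.00515). UVRAG read 7.18, 7.14 and 7.31 with manassantin, against 7.40, 7.52 and 7.51 with rotenone, a difference of -0.27 ± 0.057 (adjusted p = 0.0146). Neither SQSTM1 nor UVRAG arrays overlapped, and manassantin was the lower. The other SQSTM1 probe set stood at -0.18 (adjusted p = 0.213). MAP1LC3B was not called with its brightest probe set, at -0.12 (adjusted p = 0.153), but 208786_s_at read 9.06, 8.98 and 9.03 with manassantin, against 9.28, 9.31 and 9.33 with rotenone. That probe set was called lower, at -0.28 ± 0.05 without overlap (adjusted p = 0.00802 over all probe sets). GABARAP and SQSTM1 passed with each array left out. UVRAG did not pass without manassantin replicate 1 (adjusted p = 0.0552) or without rotenone replicate 2 or 3 (adjusted p = 0.0618 and 0.0624). LAMP2 differed by 0.03 between the compounds (interval -0.13 to 0.19).

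Other genes of these routes were read from 6 lists in the same fit. Whether the call of a list gene rests on single arrays or on 1 probe set is not given here. Of 20 further genes listed for chaperone-mediated autophagy manassantin lowered 1, TFAM, a mitochondrial transcription factor, at -0.31 (adjusted p = 0.0258), with 19 not called, or 5% called where all genes had 0.97%. HSPA8, the chaperone that recognizes the substrates, was not analysed here. Rotenone raised 1 of the 20, the co-chaperone gene STIP1, by 0.23 (adjusted p = 0.015), where 6.94% of all genes were called. Digoxin raised 5 and lowered 7, or 60% called where all genes had 54.8% (28% higher and 26.9% lower), a share near that of all genes. Among them were MEF2D, a substrate of the route, at 1.19, the kinase gene IKBKB at -0.84, RARA, an inhibitor of the route, at 0.60 and the Hsp70 co-chaperone gene ST13 at -0.51.

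Of 26 genes of mTORC1, AMPK and their regulators manassantin raised 2, both near the threshold, or 7.69% where all genes had 0.97% called. They were LAMTOR2, of the lysosomal scaffold of mTORC1, at 0.32 (adjusted p = 0.0475) and NPRL2, of the GATOR1 complex that restrains mTORC1, at 0.25 (adjusted p = 0.0408). Rotenone raised the Rag GTPase genes RRAGC and RRAGD, by 0.25 and 0.24, and lowered DDIT4, an inhibitor of mTORC1, at -0.46 (adjusted p = 0.0319), so that 11.5% were called where all genes had 6.94%. Digoxin raised 9 and lowered 8, or 65.4% called where all genes had 54.8%, with DDIT4 at -2.77, NPRL2 at -1.44 and LAMTOR3 at 1.01. Against rotenone, manassantin had 4 of the 26 higher and 3 lower, or 26.9% called where all genes had 8.47%. DDIT4 was among the higher, by 0.55 (adjusted p = 0.0133). Of 12 transcription factors digoxin raised 5, among them MITF by 0.97, TFE3 by 0.78, TFEB by 0.38 and FOXK2 by 0.35, and lowered 2, or 58.3% called where all genes had 54.8%. Manassantin and rotenone changed 0 of the 12 by limma. At an unadjusted p under 0.05 there were 3 with manassantin, or 25% where all genes had 15.8%, and 4 with rotenone, or 33.3% where all genes had 21.3%.

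Genes of the fusion step had 5 rises and 8 falls among 16 with digoxin, or 81.2% called where all genes had 54.8%, 28% higher and 26.9% lower. FYCO1, which links autophagosomes to microtubule motors, stood at -1.32, the tether subunit genes TGFBRAP1 and VPS41 at -0.56 and -0.53, and the lipid kinase gene PIKFYVE at -0.52. Of 17 receptors for mitochondria and other cargo 2 rose and 6 fell with digoxin, or 47.1% called, below the 54.8% of all genes. BNIP3, a mitochondrial receptor, stood at -1.44, its relative BNIP3L at -0.43, TOLLIP, a ubiquitin-binding adaptor, at 0.65 and SEC62, a receptor for endoplasmic reticulum, at 0.53. BNIP3L rose by 0.32 with manassantin (adjusted p = 0.0399) and was higher with manassantin than with rotenone by 0.31 (adjusted p = 0.0111), as was BNIP3 by 0.24 (adjusted p = 0.0157). Among 16 other core autophagy genes 4 rose and 5 fell with digoxin, or 56.2% called, a share near that of all genes, with TECPR2 at -0.999, the kinase gene DAPK1 at -0.56, RUBCN, an inhibitor of the class III kinase complex, at 0.43 and WDR45B, a relative of the WIPI genes, at 0.41. List medians for digoxin were -0.109 for fusion, -0.0895 for the receptors and 0.035 for the other core genes, against 0.0651 over all genes.

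**Figure D5:**
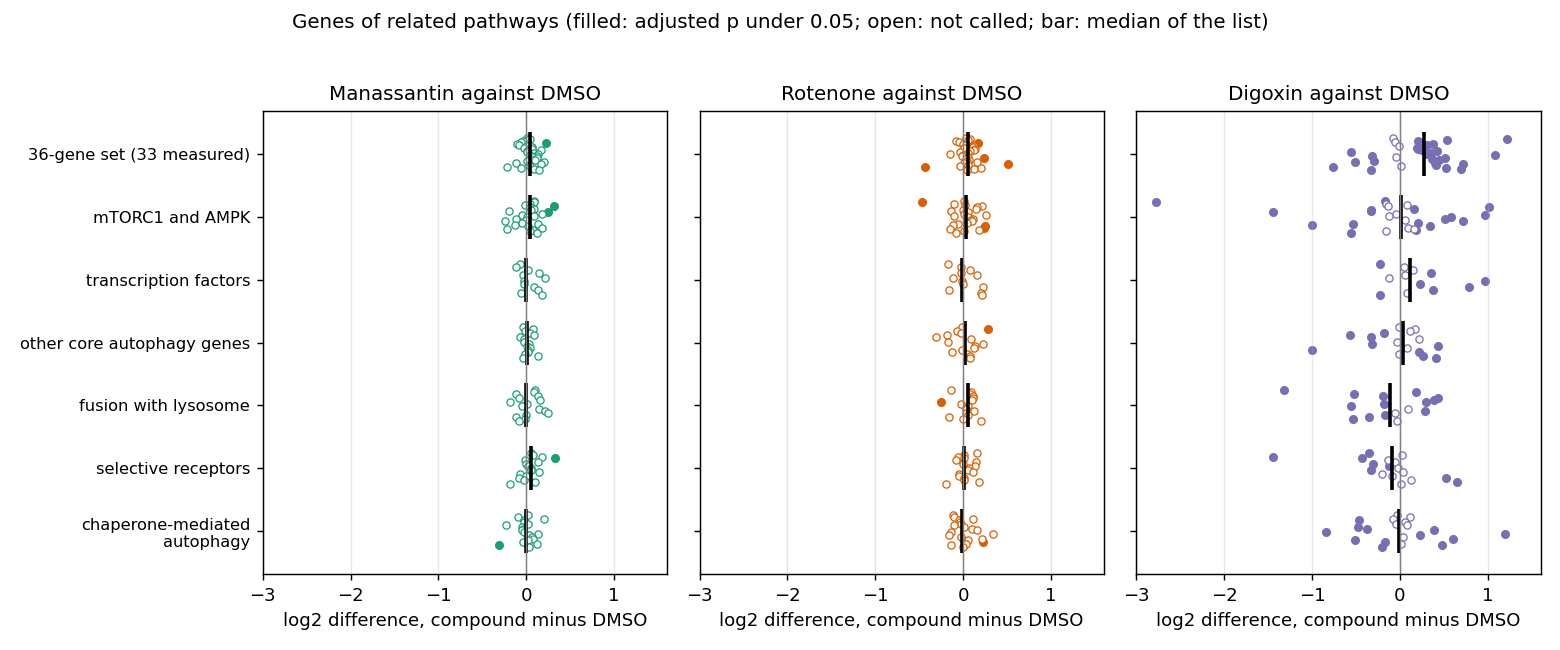
Log2 difference from DMSO (horizontal axes) of the 33 autophagy genes and of 6 lists of related genes, for manassantin, rotenone and digoxin; each point is a gene, filled where called, and black bars mark medians. With digoxin the 33 genes have a median of 0.273 and the fusion list -0.109.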

How the data were processed

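The deposited table holds 22277 probe sets, 62 of them controls, on 12 Affymetrix GeneChip arrays. Per the labels, total RNA was purified on columns, then amplified and biotin-labelled. Its values were read, from their range of 1.655 to 13.75, as log2 expression that the authors had put on a common scale. The sources used here do not name the method of background correction, summarisation or normalization. The number of arrays limits precision.

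The platform annotation names 1 gene for 19064 probe sets, and 19052 of these matched a RefSeq record, while 1043 probe sets have several genes and 2108 have no gene. Limma 3.58.1 in R 4.3.3 (lmFit, eBayes) was fitted to the brightest probe set of 11963 genes on all arrays with group as the only term. Benjamini-Hochberg values under 0.05 were called, with no filter on dim genes. The procedure was run on simulated data with few changed genes and independent noise. That setting is unlike the digoxin comparison, where 54.8% of all genes were called. Members and lists were chosen with earlier results of these data known. Values per array are given for LAMP2, for members called with a difference of 0.5 or more, and for members called with manassantin. Up to 4 called genes per list and comparison are named, chosen by size of difference, and HSPA8 is named for the study's title. Not every called list gene or list comparison is given. Deviations of same-numbered manassantin and rotenone arrays had r = 0.256, 0.362 and 0.107, but manassantin replicate 1 with rotenone replicate 3 had 0.109. Same-numbered manassantin and DMSO arrays had -0.035, 0.077 and 0.029. Neither the data nor the labels establish pairs, and the main fit used none. A replicate block over all 4 groups was fitted only as an alternative. Figures used Python 3.11.15 and matplotlib 3.10.9.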

Additional observations from a re-analysis of the deposited data

How the results depend on the processing

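The digoxin counts of 22 higher and 6 lower stayed between 20 and 22 and between 5 and 6 in each alternative tried. Manassantin's 1 higher gene became 0 with quantile normalization, median centring, the 18S covariate or only the groups compared, 2 with dim genes left out or array weights, 3 with a trended robust prior, and 0 to 0 with each array left out. Rotenone's 3 higher became 5 with dim genes left out or array weights and 1 to 2 with an array left out. With rotenone UVRAG was also called higher with quantile normalization (adjusted p = 0.043), averaged probe sets (0.0484) or a trended robust prior (0.0341). ATG2A lost its rotenone call with the 18S covariate (adjusted p = 0.164) or only the groups compared (0.0593). Rotenone's 1 lower became 0 when probe sets were averaged per gene or with the 18S covariate, 2 with a trended robust prior or array weights, and 0 to 1 with an array left out. Manassantin against rotenone kept 1 higher in each alternative tried, and its 2 lower became 1 in a fit on the groups compared, 1 to 2 with an array left out, and 3 with probe sets averaged per gene, where MAP1LC3B was called at -0.20 (adjusted p = 0.016). With probe sets averaged per gene the digoxin difference of PIK3C3 turned to 0.20 and of OPTN to -0.10, since the averaged probe sets moved in opposite directions. PIK3C3 was then called higher (adjusted p = 0.0186) and OPTN was not called (adjusted p = 0.142). ATG5 also lost its digoxin call under this averaging, at 0.08 (adjusted p = 0.234). The replicate block left 1 higher and 2 lower for manassantin against rotenone, 1 and 0 for manassantin, and 22 and 6 for digoxin, while rotenone had 4 higher and 1 lower, with UVRAG called at 0.21 (adjusted p = 0.0407). For the other changes the cause was not tested.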

Other observations

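The probe set annotated to both VMP1, a membrane protein of early autophagosomes, and the microRNA gene MIR21 read 9.54, 9.55 and 9.52 with digoxin, against 9.85, 9.75 and 9.73 with DMSO. The difference was -0.24 ± 0.058 (limma adjusted p = 0.00463 over all probe sets), and with manassantin it was -0.03. The probe set shared by GABARAPL1 and GABARAPL3 stood at 1.56 ± 0.07 with digoxin (adjusted p = 4.96e-09). It read 7.09, 6.95 and 7.12 with manassantin, against 6.84, 6.83 and 6.77 with DMSO, a difference of 0.24 ± 0.07 that did not pass (adjusted p = 0.145).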
